A study of Mus musculus with 24 samples.

Results

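The mouse major histocompatibility complex (MHC) class I heavy chains were followed through the reprogramming of neural precursor cells (NPCs) to induced pluripotent stem cells (iPSCs) with and without interferon γ (IFNγ). The members were 10 listed genes, the light chain gene B2m and the 9 heavy chain genes H2-K1, H2-D1, H2-Q4, H2-Q6, H2-Q7, H2-T22, H2-T23, H2-T24 and H2-M3, among 37315 genes in the table. All 10 were found through GENCODE vM21, the mouse gene annotation on GRCm38/mm10. B2m (ENSMUSG00000060802) lies on chromosome 2 at chr2:122147686-122153083. The heavy chain genes lie on chromosome 17 within 3.28 Mb, from H2-K1 (ENSMUSG00000061232) at chr17:33996017-34000347 to H2-M3 (ENSMUSG00000016206) at chr17:37270220-37274484, with H2-D1 (ENSMUSG00000073411) at chr17:35262730-35267499, the 3 Q genes between 35379617 and 35443773, and the 3 T genes between 36005695 and 36042747.

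A class I molecule is a heavy chain paired with B2m, the invariant light chain, and loaded in the endoplasmic reticulum with a peptide made by the proteasome and carried in by the TAP transporter. H2-K1 and H2-D1 encode the classical heavy chains that show peptides to CD8 T cells. The remaining heavy chains are non-classical: H2-Q6 and H2-Q7 belong to the Qa-2 family, H2-T23 encodes Qa-1, a ligand of CD94/NKG2 receptors, H2-T22 is recognized by some γδ T cells, and H2-M3 presents N-formyl peptides. Pluripotent cells are known for low class I expression, and IFNγ is a classical inducer of it through IRF1 and the transactivator NLRC5.

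RNA was measured in 24 libraries, 2 for each of 12 populations of one female hybrid 129S1/SvImJ, CAST/EiJ line, PaX, which carries an X-GFP reporter and doxycycline-inducible reprogramming factors in every group. The populations were embryonic stem cells (ESCs), NPCs made from them and sorted as negative for SSEA1, P-RFP and X-GFP, and control or IFNγ-treated cells at day 2, 5 or 7 of reprogramming with doxycycline. Doxycycline was first added the day before these cells were seeded for reprogramming. Treated cells received 10 ng/ml IFNγ until day 5, starting at day 0, so the day 7 cells had been without it since day 5. Cells carrying SSEA1 were sorted at days 5 and 7, and at day 7 were split by the reporter into X-GFP–negative, –medium and –high cells. The cells grew on irradiated male mouse embryonic fibroblasts (MEFs), which had been stained and sorted out at day 2. The study's methods call replicates of these data independent, and neither they nor the labels say whether they were separate cultures, so p-values measure only the spread between these libraries, which may be technical. A lower RNA level in a sorted population may reflect fewer cells expressing a gene or less RNA per cell, and these cannot be told apart here.

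All values below are normalized counts, reads on a gene divided by the size factor of the library, from 24746109 to 37056508 reads on genes per library. A log2 difference is taken on log2(normalized count + 1) and given ± its standard error, from limma on 2 libraries per group. A gene rose or fell where its Benjamini-Hochberg adjusted p over all genes with a mean above 10 was below 0.1, and a gene under that mean was not tested. The NPC libraries differed the most from each other, with a chi-square of 19.3 per degree of freedom between replicates against 3.16 in the closest pair, day 7 X-GFP–medium control. Of the marker lists, 8 pluripotency genes summed to 197 and 216 in NPCs and 155466 and 148368 in ESCs, and 8 neural precursor genes to 50152 and 45803 in NPCs and 807 and 872 in ESCs. Leukocyte genes, a list of 8, summed to at most 1383 in any library, mostly Laptm5, and Ptprc reached at most 16.

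The promoter windows were read because 9 of the 10 members rose with IFNγ at day 2 and all 10 at day 5. In other comparisons, such as ESCs against NPCs, the members moved both ways. Of the windows, 6 are shown, the 250 bases before the RefSeq transcript start on GRCm38.p6. Capitals mark the motifs searched on both strands, an IRF element (GAANNGAAA), the interferon-stimulated response element ISRE (GAAA, any 2 bases and GAAA again), a γ-activated site GAS (TTCNNNGAA), a κB site (GGGANNCCC), the X2 box (TGACGC) and CCAAT. The ISRE was added after the windows had been read.
H2-K1, chr17:34000348-34000597, minus strand: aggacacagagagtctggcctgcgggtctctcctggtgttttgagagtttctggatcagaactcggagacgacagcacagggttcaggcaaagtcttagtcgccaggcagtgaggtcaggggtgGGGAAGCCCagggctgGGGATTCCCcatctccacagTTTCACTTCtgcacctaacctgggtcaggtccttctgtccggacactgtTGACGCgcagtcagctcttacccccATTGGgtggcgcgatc
H2-Q7, chr17:35438905-35439154, plus strand: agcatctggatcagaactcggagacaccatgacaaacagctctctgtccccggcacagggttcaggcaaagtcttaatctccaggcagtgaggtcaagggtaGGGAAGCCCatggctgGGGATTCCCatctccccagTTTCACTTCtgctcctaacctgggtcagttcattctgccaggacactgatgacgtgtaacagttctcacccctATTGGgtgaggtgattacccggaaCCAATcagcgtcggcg
H2-M3, chr17:37269984-37270233, plus strand: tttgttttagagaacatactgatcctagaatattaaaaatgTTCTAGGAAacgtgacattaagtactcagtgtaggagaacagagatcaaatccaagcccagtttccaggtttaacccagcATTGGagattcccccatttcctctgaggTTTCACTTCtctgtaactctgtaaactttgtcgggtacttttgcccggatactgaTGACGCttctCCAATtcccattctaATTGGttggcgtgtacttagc
H2-T22, chr17:36042743-36042992, minus strand: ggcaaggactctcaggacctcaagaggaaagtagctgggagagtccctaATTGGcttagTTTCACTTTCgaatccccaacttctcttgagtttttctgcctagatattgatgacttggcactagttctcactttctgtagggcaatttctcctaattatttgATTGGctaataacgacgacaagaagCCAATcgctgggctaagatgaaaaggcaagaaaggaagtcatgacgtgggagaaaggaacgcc
H2-T23, chr17:36032702-36032951, minus strand: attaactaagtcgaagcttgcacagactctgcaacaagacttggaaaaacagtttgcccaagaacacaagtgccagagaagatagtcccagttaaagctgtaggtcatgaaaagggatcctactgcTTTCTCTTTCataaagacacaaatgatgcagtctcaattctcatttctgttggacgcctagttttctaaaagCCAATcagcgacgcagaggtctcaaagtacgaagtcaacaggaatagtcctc
B2m, chr2:122147437-122147686, plus strand: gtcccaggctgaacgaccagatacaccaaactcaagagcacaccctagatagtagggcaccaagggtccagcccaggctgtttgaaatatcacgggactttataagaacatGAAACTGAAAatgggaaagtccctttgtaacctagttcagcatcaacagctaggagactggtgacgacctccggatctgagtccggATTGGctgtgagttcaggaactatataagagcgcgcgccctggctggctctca

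RefSeq gave a window of 300 bases, 250 before and 50 after the start, for 9 of the 10 members, all but H2-T24. The IRF letters were present in 6 of these, H2-K1, H2-D1, H2-Q4, H2-Q6, H2-Q7 and H2-M3, and in 7.52% of all 32851 windows. The ISRE letters were in the other 3, B2m, H2-T22 and H2-T23, and in 3.44% of all windows. In H2-K1, as shown, the κB matches began 126 and 110 bases, the IRF match 90 bases and the X2 match 41 bases before the start. The κB letters were in 4 members, H2-K1, H2-D1, H2-Q6 and H2-Q7 (5.66% of all windows), and X2 in 4, H2-K1, H2-D1, H2-Q4 and H2-M3 (7.4%). The X2 match of H2-Q4 was on the reverse strand, 31 bases after the start, while those of H2-K1, H2-D1 and H2-M3 were forward and before it. Some windows are partial copies, H2-Q6 and H2-Q7 being 76.6% identical and H2-D1 and H2-K1 70.9%, against 29.1% for H2-K1 and H2-T22. Matches in such copies are not separate occurrences. The GAS letters were only in H2-M3 among the members (8.3%), and CCAAT was in all 9 (37.4%). A match here describes letters in a window, and the search says nothing of binding.

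The heavy chains are close copies, which bears on how reads of 50 bases could be assigned. Over their longest reading frames, H2-Q6 and H2-Q7 were 95.4% identical and H2-K1 and H2-D1 92%, and the 36 pairs of heavy chains ranged from 69% to 95.4% with a median of 76.7%. Of the 50-base words in the transcripts of H2-T22, 34.5% also occurred in another gene, mostly H2-T10. The share was 32% for H2-Q6, which shared 13.9% with H2-Q7, and 26.4% for H2-Q7, which shared 14% with H2-Q10. It was 21.8% for H2-Q4, 13.6% for H2-T23, 12.8% for H2-D1 and 9.63% for H2-K1. Values of H2-Q6, H2-Q7 and H2-T22 are therefore the least certain of the members as values of one gene. B2m shared no word with another gene, and H2-M3 shared 0.576%.

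Before IFNγ, the members differed in where they were high (plot of levels). B2m was at 749.7 and 958 in NPCs, reached 6878 and 6229 in untreated day 2 cells, 3305 and 3018 at day 5, 4089 and 3752 in the negative, 3834 and 3538 in the medium and 1737 and 1441 in the high X-GFP gate at day 7, and 262 and 259.8 in ESCs. Its lowest level was that of ESCs and its highest control level that of day 2, which does not overlap any other control population. H2-K1 was at 1260.2 and 604 in NPCs, 1082 and 1089, 2466 and 2165, 2759 and 2657, 2126 and 1914 and 1376 and 1389.8 in the same order of control cells, and 1247 and 1239 in ESCs. H2-T23 was at 79.7 and 51 in NPCs, then 454 and 526 (day 2) and 28.6 and 24 (day 5), 77.9 and 71.9, 57.3 and 50.6 and 47.4 and 36.3 in the 3 day 7 control populations, and 18.7 and 11.4 in ESCs. H2-T23 was thus highest among these at day 2, and H2-K1 was not. Ordering all 12 populations by their means, the libraries of neighbors overlapped in 4 of 11 neighboring pairs for B2m, 4 for H2-K1, 4 for H2-D1, 5 for H2-Q4, 6 for H2-Q6, 6 for H2-Q7, 1 for H2-T22, 5 for H2-T23, 5 for H2-T24 and 8 for H2-M3. For B2m the order from the top was day 2 IFNγ, day 5 IFNγ, day 2 control, X-GFP–negative IFNγ, X-GFP–negative control, X-GFP–medium control, day 5 control, X-GFP–medium IFNγ, X-GFP–high control, NPCs, X-GFP–high IFNγ and ESCs.

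**Figure D1:**
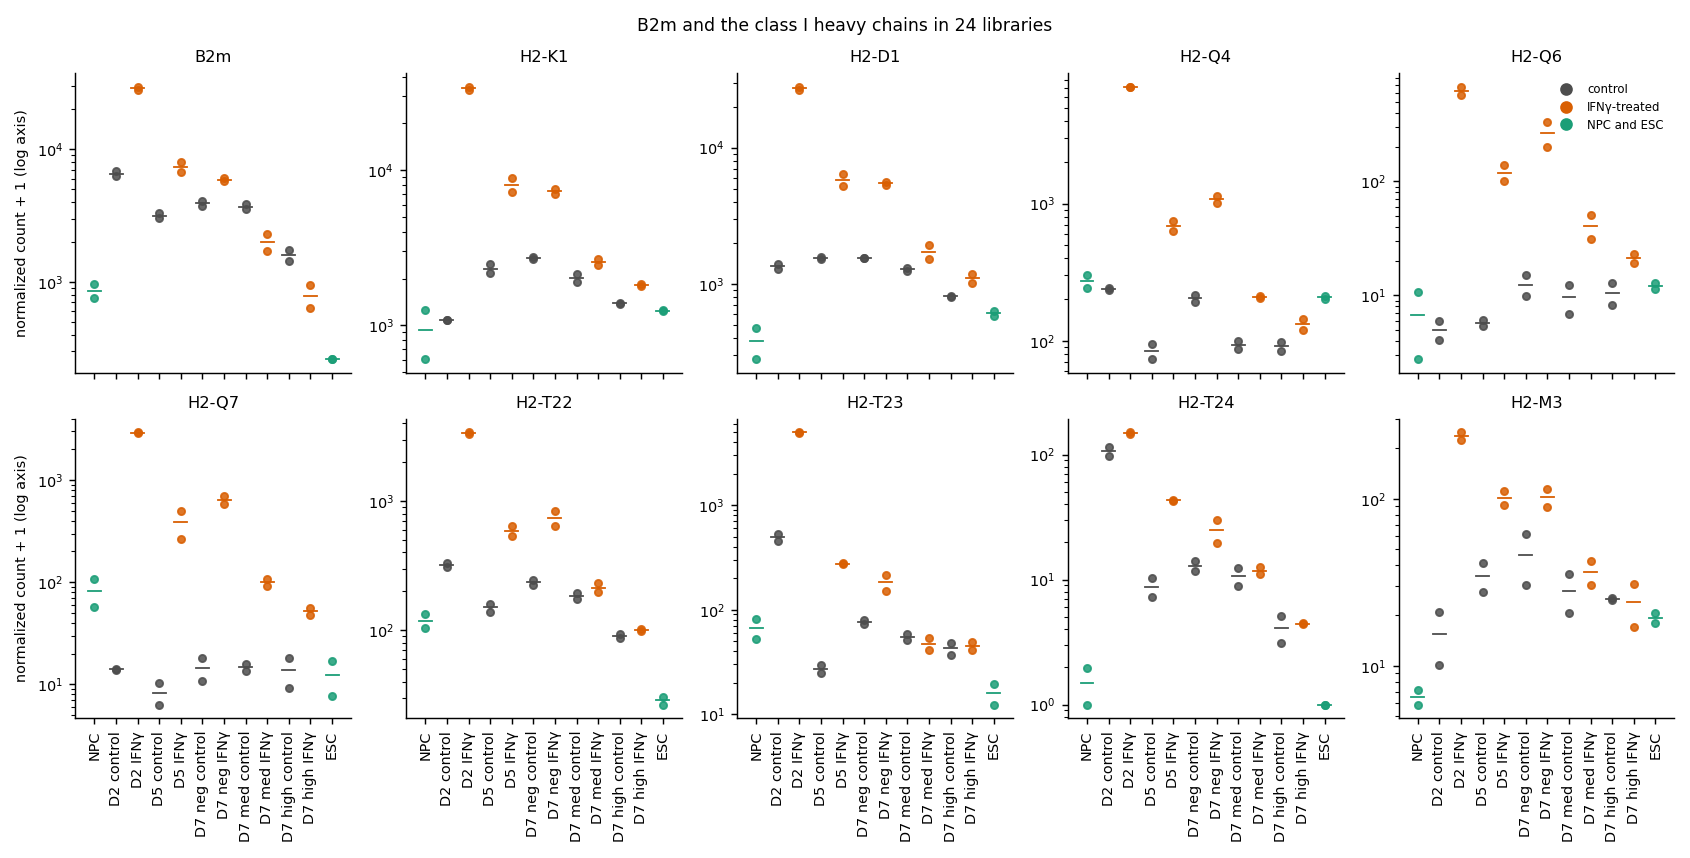
Normalized counts + 1 of the 10 members in each of the 24 libraries, on a log axis, by population. Each point is a library, with control libraries, IFNγ-treated libraries, and NPCs and ESCs together in separate colors. Day 2 IFNγ libraries are the highest for every member, and in X-GFP–medium and –high cells of day 7 the B2m points of IFNγ-treated cells (1702 and 2289, 629 and 942) lie below those of control cells.

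ESCs and NPCs, the pluripotent and the differentiated end of the system, differed in both directions. In ESCs, 42.2% of the 15911 genes tested were higher and 43.4% were lower. Of 8 members tested, 2 were higher and 5 lower in ESCs, with a median log2 difference of -1.04 against -0.027 over all genes. B2m (-1.70 ± 0.14, adjusted p = 8.69e-05), H2-Q7, H2-T22, H2-T23 and H2-Q4 were lower in ESCs, and H2-D1 (0.73 ± 0.25, adjusted p = 0.0335) and H2-M3 higher. H2-D1 had 474 and 278 in the NPC libraries and 629.9 and 579.6 in those of ESCs. H2-T22 was at 103 and 132 in NPCs against 25.6 and 29.5 in ESCs, and H2-Q7 at 107 and 56.2 against 15.7 and 6.66. H2-K1 did not pass the threshold (0.51 ± 0.32, 95% interval -0.28 to 1.30). The call of H2-D1 was lost without either ESC library (adjusted p = 0.259 and 0.204), that of H2-Q4 without either ESC library or NPC replicate 1 (adjusted p from 0.218 to 0.297), and H2-K1 rose without NPC replicate 1 (adjusted p = 0.00265). DESeq2 did not make the call of H2-Q4 (adjusted p = 0.169), and H2-K1 passed in the fit of all 24 libraries (0.0224).

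From NPCs to day 2 control cells, B2m went from 749.7 and 958 to 6878 and 6229, 7.67-fold. Of 9 members tested, 6 rose, B2m, H2-D1, H2-T22, H2-T23, H2-T24 and H2-M3, and H2-Q7 fell, while 31.6% of the 15738 genes tested rose and 37.6% fell. H2-T24 had 1 and 0 reads in NPCs and was at 96.7 and 115 at day 2, at least 38.2-fold higher against a floor of 3 reads per library. H2-T23 rose by 2.92 ± 0.25 log2 units (adjusted p = 0.00026). H2-K1 differed by 0.31 ± 0.32 (adjusted p = 0.419), and its NPC libraries, at 1260.2 and 604, lie on either side of the day 2 libraries at 1082 and 1089. Without NPC replicate 2 its difference turned to -0.21 (adjusted p = 0.0991), and without NPC replicate 1 H2-K1 rose (adjusted p = 0.000164) and the call of H2-M3 was lost (adjusted p = 0.167). The H2-M3 call was also lost in DESeq2 (adjusted p = 0.26) and with no filter on low values (0.12). The 4 male MEF genes summed to 253 and 218 in day 2 control cells against 1.94 and 0 in NPCs, and all 4 rose. The 8 fibroblast genes summed to 61408 and 41396 at day 2 against 30196 and 43108 in NPCs, with 4 higher and 3 lower. The part of either list in these differences was not tested.

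From day 2 to day 5 the members moved both ways in control cells. Of 9 members tested, 3 rose and 5 fell, and 34.9% of the 15729 genes tested rose and 35.6% fell. H2-T23 fell from 454 and 526 to 28.6 and 24 (-4.17 ± 0.21, adjusted p = 7.61e-06) and H2-T24 from 96.7 and 115 to 9.26 and 6.22, and B2m, H2-Q4 and H2-T22 fell by 1.05 to 1.52 log2 units. H2-K1, in contrast, rose from 1082 and 1089 to 2466 and 2165 (1.09 ± 0.087, adjusted p = 4.5e-05), with H2-M3 and, by 0.20, H2-D1. The H2-D1 call was lost without day 2 control replicate 2 or either day 5 control library (adjusted p from 0.110 to 0.324) and with the libraries rescaled to the same total (0.469), and that of H2-M3 without day 2 control replicate 1 or day 5 control replicate 1 (adjusted p = 0.22 and 0.187). H2-Q7 fell without day 5 control replicate 1 (adjusted p = 0.0614). DESeq2 made the call of neither H2-D1 (adjusted p = 0.152) nor H2-M3 (0.182), and in the fit of 24 libraries that of H2-D1 was lost (0.303) and H2-Q7 passed (0.0933). Male MEF genes summed to 253 and 218 in these cells at day 2 and to 5.89 and 2.66 at day 5. The 8 fibroblast genes summed to 61408 and 41396 at day 2 and to 2574 and 1712 at day 5. Cells were sorted for SSEA1 at day 5 but not at day 2. The part of MEF RNA and of the sort in these differences was not tested.

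From day 5 to day 7 X-GFP–negative control cells, 5 of 8 members tested rose, B2m, H2-K1, H2-Q4, H2-T22 and H2-T23, and 0 fell, while 34.2% of the 15225 genes tested rose and 29.5% fell. The largest rise was that of H2-T23, 1.48 ± 0.24 (adjusted p = 0.00136), and the H2-K1 call (0.23) was lost without day 5 control replicate 2 or either X-GFP–negative control library (adjusted p from 0.107 to 0.223). X-GFP–high control cells, in which the reporter on the inactive X chromosome is on, were lower than X-GFP–negative ones in 7 of 9 members tested and higher in 0, while 34.7% of the 15574 genes tested were higher and 39.3% were lower. B2m fell by 1.31, H2-T22 by 1.39, H2-K1 by 0.97 and H2-D1 by 0.93 on the log2 scale between these cells. H2-Q6 and H2-Q7, with at most 17.2 in these libraries, did not pass the threshold, and the H2-M3 call was lost without either X-GFP–high control library or X-GFP–negative control replicate 2 (adjusted p from 0.112 to 0.514). Against ESCs, X-GFP–high control cells were still higher in B2m (2.59 ± 0.097, adjusted p = 5.76e-11), H2-T22, H2-T23, H2-D1 and H2-K1, 5 of 9 members tested, and lower in 1, H2-Q4 (-1.19 ± 0.16), while 37.9% of the 15427 genes tested were higher and 37.8% were lower. H2-K1 differed there by only 0.15, and its call was lost without any 1 of the 4 libraries (adjusted p from 0.104 to 0.133). In the fit of 24 libraries the calls of B2m (adjusted p = 0.109) and H2-K1 (0.339) from day 5 to day 7 and of H2-K1 against ESCs (0.511) were lost. DESeq2 made neither of these H2-K1 calls (0.143 and 0.128) nor that of H2-M3 between the X-GFP gates (0.15), which was also lost with no filter (0.163), and rescaling the totals ended that of H2-K1 from day 5 to day 7 (0.162). Wherever 0 members are given in a direction here or below, limma had 0 members in that direction at an unadjusted p below 0.05, and DESeq2 and edgeR called 0.

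Per kilobase of exon, H2-K1 and H2-D1 made up 68.1% to 92.3% of the summed level of the 9 heavy chains by population mean. The mean was least in day 2 control and greatest in day 5 control cells. The NPC libraries, at 74.7% and 65.2%, lay on either side of the day 2 control libraries at 69.4% and 66.7%. In day 2 control cells H2-D1 was the highest per kilobase (521 against 369.5 for H2-K1), the only population in which both libraries had less H2-K1 than H2-D1, with per-kilobase ratios of 0.677 and 0.745. H2-T23 held 13% of the sum there and 0.607% at day 5. H2-Q4 held 16% in NPCs and 10.3% in ESCs, against 2.13% in day 5 control cells. All 10 members together took from 0.00819% of all normalized counts, in an ESC library, to 0.406%, in a day 2 IFNγ library.

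**Figure D2:**
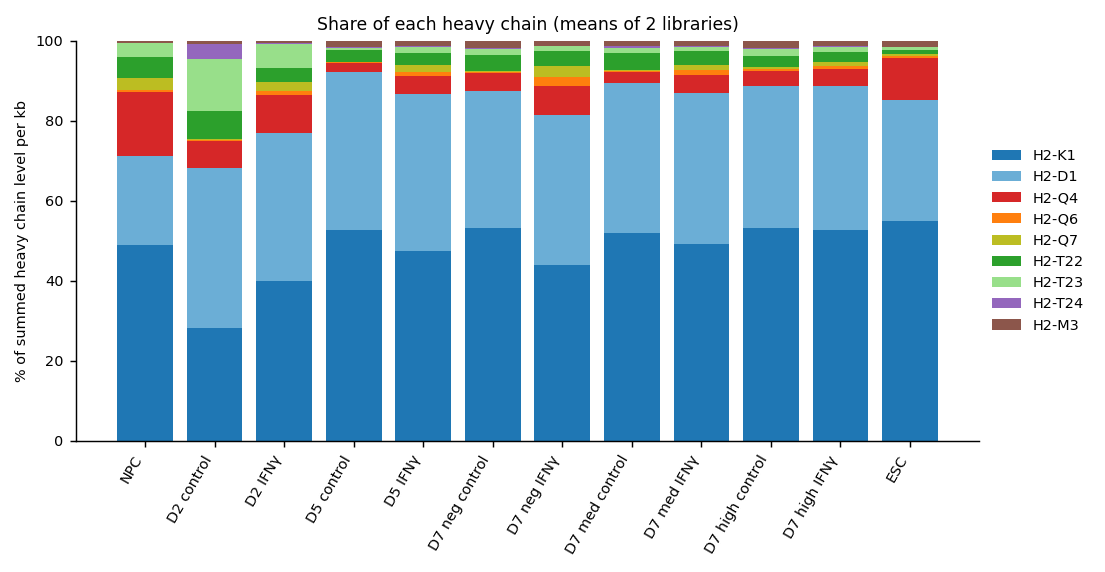
Share (%) of each heavy chain in the summed level per kilobase of exon of the 9 heavy chains, as stacked bars of population means (2 libraries each). H2-K1 and H2-D1 fill 68.1% of the day 2 control bar and 92.3% of the day 5 control bar, and H2-T23 and H2-T24 are widest in day 2 control cells.

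IFNγ raised 9 of the 10 members at day 2, and lowered 0. In all, 5.03% of the 15697 genes tested rose and 3.45% fell. The summed heavy chains stood at 3634 and 3590.0 in control libraries and reached 81444 and 78954 with IFNγ, 22.2-fold higher. B2m, the light chain, went from 6878 and 6229 to 29543 and 28131, 4.4-fold (2.14 ± 0.065, adjusted p = 8.52e-06). The median log2 difference of the members was 4.18, against 0.0054 over all genes.

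The classical heavy chains rose strongly from a high base at day 2. H2-K1 was at 1082 and 1089 without and 34407 and 32926 with IFNγ, 31-fold (4.95 ± 0.051, adjusted p = 6.6e-08). H2-D1 was at 1404 and 1283 without and 27915 and 26515 with IFNγ, 20.3-fold (4.34 ± 0.063, adjusted p = 2.3e-07). In all 10 members both IFNγ libraries lay above both controls, against 26% of all genes with a mean above 10.

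The Qa-2 family genes H2-Q7 and H2-Q6 had the largest folds. H2-Q7 was at 13.2 and 12.9 without and 2888 and 2953 with IFNγ, 223-fold (7.70 ± 0.13, adjusted p = 4.32e-07). H2-Q6 was at 3.06 and 4.96 without and 576 and 673 with IFNγ, 156-fold, but on 3 and 5 reads in the control libraries (adjusted p = 3e-05). H2-Q4 was at 241 and 232 without and 7062 and 7098 with IFNγ, 29.9-fold. The Q genes thus spanned a range of control levels, and all 3 were well separated from their controls.

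H2-M3, which presents N-formyl peptides, was at 9.17 and 19.9 without and 223 and 249.4 with IFNγ, 16.3-fold (4.03 ± 0.36, adjusted p = 0.00183). H2-T22 was at 329.9 and 307 without and 3306 and 3421 with IFNγ, 10.6-fold. H2-T23 was at 454 and 526 without and 4922 and 4969 with IFNγ, 10.1-fold (3.34 ± 0.083). H2-T24 was the member not called, at 96.7 and 115 without and 146 and 150.4 with IFNγ. Both IFNγ libraries were above both controls, 1.4-fold, but the difference of 0.48 ± 0.17 did not pass the threshold (adjusted p = 0.181, 95% interval 0.072 to 0.90). The other 9 calls held under every alternative run, including each library left out. Fibroblast genes summed to 61408 and 41396 without and 30728 and 25195 with IFNγ, with 4 of 8 lower, and the male MEF genes to 253 and 218 without and 125 and 223 with it, and their part in these differences was not tested.

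At day 5 all 10 members rose and 0 fell, by a median of 2.14 log2 units against -0.0017 over all genes, while 1.65% of the 15133 genes tested rose and 0.535% fell. B2m was at 3305 and 3018 without and 8022 and 6788 with IFNγ, 2.34-fold (1.22 ± 0.099, adjusted p = 0.00193). H2-K1 was at 2466 and 2165 without and 8835 and 7261 with IFNγ, 3.48-fold, and H2-D1 at 1560.3 and 1515 without and 6378 and 5261 with IFNγ, 3.78-fold. The classical chains thus remained above control by smaller folds than at day 2, from a higher control level of H2-K1.

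The non-classical chains at day 5 included the largest folds again. H2-Q7 was at 9.26 and 5.33 without and 503 and 265 with IFNγ, 52.6-fold (adjusted p = 0.00108). H2-Q6 was at 5.05 and 4.44 without and 137 and 98.9 with IFNγ (adjusted p = 0.00127), with 6 and 5 reads in the controls. H2-T23 was at 28.6 and 24 without and 269.9 and 278 with IFNγ, 10.4-fold (3.34 ± 0.21, adjusted p = 0.000726). H2-Q4 rose 8.32-fold and H2-T22 3.92-fold. H2-T24 was at 9.26 and 6.22 without and 42.3 and 41.9 with IFNγ (2.32 ± 0.35, adjusted p = 0.0406), so that the gene that had not passed the threshold at day 2 rose here. H2-M3 was at 40.4 and 26.6 without and 110.4 and 90.2 with IFNγ (adjusted p = 0.0693). The calls of H2-T24 and H2-M3 were lost without day 5 IFNγ replicate 2 (adjusted p = 0.174 and 0.191) and without day 5 control replicate 2 (0.112 and 0.158). That of H2-M3 was also lost with no filter on low values (0.141).

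Whether the IFNγ effect differed between days 5 and 2 was tested as an interaction in the 8 libraries of both days. Cells were sorted for SSEA1 at day 5 but not at day 2. Fibroblast genes summed to 61408 and 41396 without and 30728 and 25195 with IFNγ at day 2. At day 5 they summed to 2574 and 1712 without and 1447 and 909 with it. The part of the sort and of MEF RNA in the differences between days was not tested. The effect was smaller at day 5 for 6 members, B2m, H2-K1, H2-D1, H2-Q4, H2-Q6 and H2-T22, and larger for 1, H2-T24, while 0.202% of the 15837 genes tested had a larger and 0.474% a smaller effect. Among these 6 the largest decrease was that of H2-K1, -3.16 ± 0.14 (adjusted p = 2.89e-05), followed by H2-Q6 at -2.63 ± 0.42 and H2-D1 at -2.43 ± 0.13. H2-T23 had the same log2 difference of 3.34 on both days, a difference of effects with a 95% interval of -0.41 to 0.41, while its control level dropped by 4.17 log2 units. For H2-T24 the effect was larger at day 5 by 1.84 ± 0.36 (adjusted p = 0.0992), and the call was lost without either day 2 IFNγ library, either day 2 control library, day 5 IFNγ replicate 2 or day 5 control replicate 2 (adjusted p from 0.195 to 0.358). The B2m call was lost without day 2 IFNγ replicate 1 or day 2 control replicate 2 (adjusted p = 0.114 and 0.103), and that of H2-Q6 without either day 2 IFNγ library, day 2 control replicate 1, day 5 IFNγ replicate 2 or day 5 control replicate 1 (0.105 to 0.240). The calls of H2-Q6 and H2-T24 were also lost in edgeR (0.198, H2-Q6) and with no filter or in the fit of 24 libraries (0.188 and 0.11, H2-T24). H2-Q7 (-2.19 ± 0.45, adjusted p = 0.121) and H2-M3 (-2.45 ± 0.51, adjusted p = 0.119) did not pass the threshold. Both passed in the fit of 24 libraries (adjusted p = 0.0879 and 0.0408), H2-M3 in edgeR (0.0876) and both in DESeq2 (adjusted p = 0.0162 and 0.00351), H2-Q7 also without day 5 IFNγ replicate 1 or day 5 control replicate 2 (0.0345 and 0.0828) and H2-M3 without day 2 control replicate 2 or day 5 IFNγ replicate 1 (0.0527 and 0.0962).

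**Figure D3:**
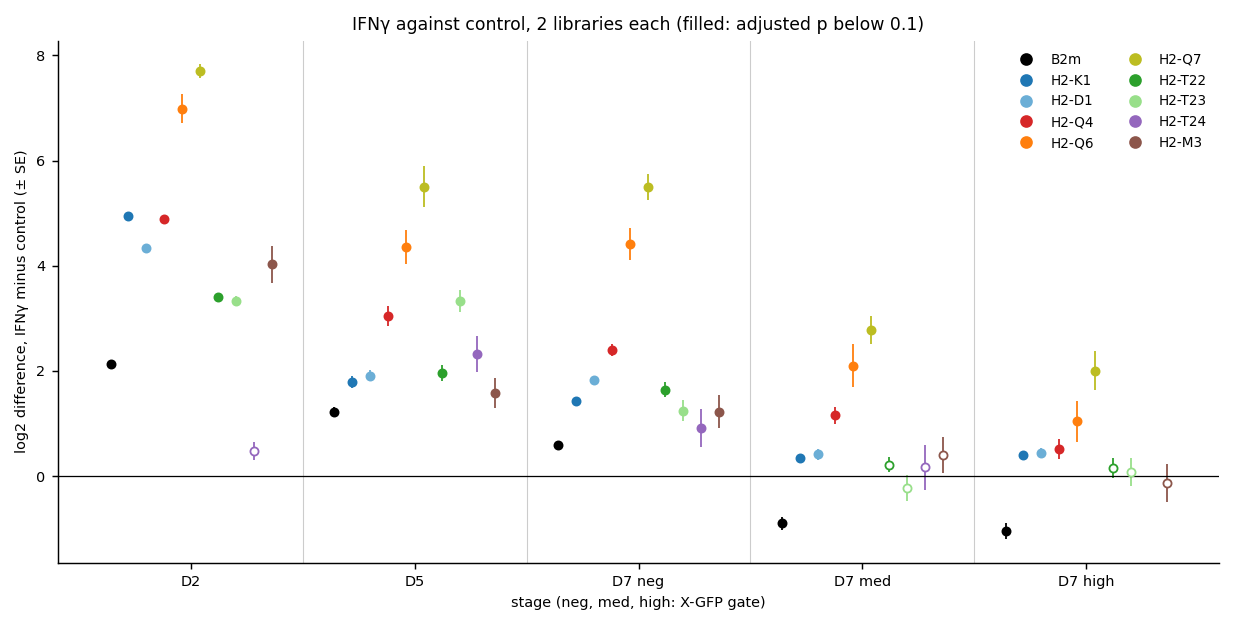
Log2 difference of IFNγ-treated against control cells for each member at day 2, day 5 and in the 3 day 7 populations. Points have bars of ± 1 standard error from limma (2 libraries per group) and are filled where the adjusted p was below 0.1. H2-T24 has no point in X-GFP–high cells, where it was not tested. B2m is the only member that fell, by -0.90 (X-GFP–medium) and -1.04 (X-GFP–high).

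At day 7, with IFNγ withdrawn since day 5, X-GFP–negative cells still had all 10 members higher and 0 lower, by a median of 1.54 log2 units. This population changed broadly, and 31.1% of the 15531 genes tested rose and 30.8% fell. Rescaling the libraries to the same total moved the median of all genes by 0.16 and the share of calls that were higher from 50.3% to 66.3%, and left all 10 members called. B2m was at 4089 and 3752 without and 6072 and 5747 with IFNγ, 1.51-fold (0.59 ± 0.067, adjusted p = 9.3e-05). H2-K1 was at 2759 and 2657 without and 7552 and 7044 with IFNγ, 2.69-fold (adjusted p = 1.04e-06), and H2-D1 rose 3.55-fold. Light and classical heavy chains thus remained above control.

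The Qa-2 family genes kept the largest folds in X-GFP–negative cells. H2-Q7 was at 9.87 and 17.2 without and 700.2 and 580.0 with IFNγ, 47.3-fold (5.51 ± 0.25, adjusted p = 1.04e-06). H2-Q6 was at 8.78 and 13.9 without and 332 and 199.9 with IFNγ, 23.4-fold. H2-Q4 rose 5.31-fold, H2-T22 3.16-fold, H2-T23 2.42-fold and H2-M3 2.25-fold. H2-T24 was at 13.2 and 10.7 without and 29 and 18.8 with IFNγ (adjusted p = 0.057), and its call was lost without X-GFP–negative IFNγ replicate 1 or X-GFP–negative control replicate 2 (adjusted p = 0.348 and 0.162). DESeq2 did not make it (0.252), nor did the fit with no filter (0.103). Of the fibroblast genes, Dcn fell here, at 4299.7 and 3801 without and 219 and 287 with IFNγ, and Pdgfrb rose. The 7 genes other than Dcn summed to 766 and 642 without and 816 and 738 with IFNγ, and the part of this list was not tested.

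Compared with day 5, the IFNγ effect in X-GFP–negative cells was smaller for 5 members, B2m, H2-K1, H2-Q4, H2-T23 and H2-T24, and larger for 0, while 17.8% of all genes had a larger and 22.5% a smaller effect. Rescaling to the same total moved the median of all genes by 0.15 and the share of larger effects among the calls from 44.2% to 63%, and left 3 of these members called, B2m, H2-T23 and H2-T24. H2-T23 had the largest decrease, -2.09 ± 0.29 (adjusted p = 0.00135), and B2m differed by -0.63 ± 0.13 (adjusted p = 0.00633). The effect on H2-Q7 differed by -0.00045 ± 0.52, a 95% interval of -1.17 to 1.17, and that on H2-Q6 by 0.064 ± 0.47 (-0.99 to 1.12). The H2-K1 call (0.0764) was lost without 6 of the 8 libraries, all but day 5 IFNγ replicate 2 and day 5 control replicate 1 (adjusted p from 0.102 to 0.220). That of H2-Q4 (0.0505) was lost without day 5 IFNγ replicate 1, day 5 control replicate 1, X-GFP–negative IFNγ replicate 2 or X-GFP–negative control replicate 1 (0.120 to 0.170), and that of H2-T24 (0.0543) without either day 5 IFNγ library, day 5 control replicate 2, X-GFP–negative IFNγ replicate 2 or X-GFP–negative control replicate 1 (0.102 to 0.183). Between the IFNγ-treated cells themselves, 3 of 10 members were higher in X-GFP–negative day 7 than in day 5 cells, H2-Q4 (0.65 ± 0.12), H2-Q6 (1.14 ± 0.27) and H2-Q7 (0.80 ± 0.28), and 3 lower, B2m, H2-T23 and H2-T24, while 23.1% of the 15485 genes tested were higher and 24.2% were lower. Here rescaling moved the share of higher calls from 48.8% to 59.4%. Without X-GFP–negative IFNγ replicate 1 only H2-Q4 and H2-T23 of these 6 kept their calls, without X-GFP–negative IFNγ replicate 2 only the 3 Q genes did, and without either day 5 IFNγ library the call of H2-T24 was lost. H2-T22 rose without day 5 IFNγ replicate 1 or X-GFP–negative IFNγ replicate 2 (adjusted p = 0.0598 and 0.0597), and H2-K1 and H2-D1 fell without day 5 IFNγ replicate 2 (0.0292 and 0.0572). In the test of the effects, H2-K1 was also lost with no filter (0.132) and in the fit of 24 libraries (0.334), and H2-T24 with no filter (0.111) and in DESeq2 (0.265). Between the IFNγ-treated cells, the fit of 24 libraries lost B2m (0.114) and H2-Q7 (0.125) and gained H2-T22 (0.0896), rescaling gained H2-T22 (0.0825), and H2-T24 was lost with no filter (0.12) and in DESeq2 (0.302).

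In X-GFP–medium cells B2m fell with IFNγ while 5 heavy chains rose. B2m was at 3834 and 3538 without and 1702 and 2289 with IFNγ, a fall of 0.90 ± 0.12 log2 units (adjusted p = 0.000116). Of the 9 heavy chains 5 rose and 0 fell, while 33.3% of the 15595 genes tested rose and 29.6% fell. H2-K1 was at 2126 and 1914 without and 2437 and 2689 with IFNγ (0.34 ± 0.076, adjusted p = 0.00348) and H2-D1 at 1308 and 1249 without and 1511 and 1935 with IFNγ (0.42 ± 0.10, adjusted p = 0.00662). The classical heavy chains were modestly higher, and their libraries did not overlap those of control cells.

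Larger differences were again in the Q genes of X-GFP–medium cells. H2-Q7 was at 14.8 and 12.4 without and 90.7 and 108 with IFNγ (2.78 ± 0.26, adjusted p = 1.63e-05). H2-Q6 was at 5.93 and 11.4 without and 49.3 and 30.3 with IFNγ (adjusted p = 0.00164), and H2-Q4 at 98.8 and 86.7 without and 212 and 203 with IFNγ (adjusted p = 0.000159). H2-T22 (0.21 ± 0.14), H2-T23 (-0.23 ± 0.24), H2-T24 (0.17 ± 0.42) and H2-M3 (0.40 ± 0.34) did not pass the threshold. H2-T22 rose without X-GFP–medium IFNγ replicate 1 (adjusted p = 0.0514), and the H2-K1 call was lost in a fit of all 24 libraries (0.153).

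X-GFP–high cells showed the same split. B2m was at 1737 and 1441 without and 629 and 942 with IFNγ, a fall of 1.04 ± 0.15 log2 units (adjusted p = 0.000427). Of the 8 heavy chains tested 5 rose and 0 fell, while 18.1% of the 15598 genes tested rose and 20.4% fell. H2-K1 was at 1376 and 1389.8 without and 1858 and 1798 with IFNγ (0.40 ± 0.074, adjusted p = 0.00175) and H2-D1 at 805 and 813 without and 1008 and 1185 with IFNγ (0.43 ± 0.096, adjusted p = 0.00549). H2-Q7 was at 8.25 and 17.1 without and 46.8 and 55.5 with IFNγ (2.01 ± 0.36, adjusted p = 0.00166). Both IFNγ libraries lay above both controls in 6 members and below them in 1, B2m. Of all genes with a mean above 10, 35.5% lay above and 32.2% below in this way. In a fit of all 24 libraries the H2-K1 call was lost (adjusted p = 0.139).

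H2-Q4, at 83.5 and 97.1 without and 119 and 142 with IFNγ (adjusted p = 0.057), and H2-Q6, at 7.22 and 11.7 without and 18.3 and 22 with IFNγ (adjusted p = 0.0663), were the weakest calls in X-GFP–high cells. DESeq2 did not make them (adjusted p = 0.213 and 0.363). With no filter on low values both were lost (0.13 and 0.15), and H2-Q6 also in the fit of 24 libraries (0.127). They were lost without X-GFP–high IFNγ replicate 2 (0.19 and 0.174) and without control replicate 1 (0.332 and 0.376), and H2-Q4 also without control replicate 2 (0.1003). H2-T22 (0.16 ± 0.19), H2-T23 (0.084 ± 0.27) and H2-M3 (-0.13 ± 0.35) did not pass the threshold. H2-T24 had at most 4 reads in any X-GFP–high library and was not tested.

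The falls of B2m passed the threshold under every alternative run in both populations. Of the 8 fibroblast genes, Dcn, a proteoglycan gene, was at 5019.6 and 4472 without and 166 and 242 with IFNγ in X-GFP–medium cells and at 2176 and 1668 without and 41.1 and 119 with IFNγ in X-GFP–high cells. The other 7 together were at 592 and 570.0 without and 524 and 502 with IFNγ in X-GFP–medium cells, where Col1a1, Col1a2 and Thy1 also fell and Col3a1 and Pdgfrb rose. In X-GFP–high cells those 7 were at 438 and 457 without and 571 and 567 with IFNγ, higher in both treated libraries, and of them only Thy1 passed the threshold, as a rise. The pluripotency genes summed to 80158 and 82065 without and 114304 and 109290.0 with IFNγ in X-GFP–medium cells, and to 128378 and 131659 without and 153212 and 145632 with it in X-GFP–high cells. The part of either list in the B2m difference was not tested.

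The IFNγ effect in X-GFP–high cells was smaller than in X-GFP–negative cells for 9 of 10 members, all but H2-T24, and larger for 0, while 9.43% of all genes had a larger and 13.3% a smaller effect. Rescaling moved the median of all genes by -0.17 and the share of larger effects among the calls from 41.4% to 13.9%. H2-Q7 differed by -3.50 ± 0.48 (adjusted p = 0.00137), H2-Q6 by -3.38 ± 0.50, B2m by -1.63 ± 0.21 (adjusted p = 0.00106) and H2-K1 by -1.03 ± 0.088. The call of H2-M3 (adjusted p = 0.0997) was lost without 6 of the 8 libraries, all but X-GFP–high IFNγ replicate 1 and X-GFP–negative control replicate 2 (0.120 to 0.320), and that of H2-T23 (0.034) without X-GFP–high control replicate 1 or X-GFP–negative IFNγ replicate 1 (0.119 and 0.133). The H2-M3 call was also lost with no filter (0.221), with a pseudocount of 0.1 (0.111), in DESeq2 (0.193), in edgeR (0.126) and in the fit of 24 libraries (0.124).

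The balance of light and heavy chain RNA followed from these values. Per kilobase of exon, B2m stood at 6.08 and 5.56 times the summed heavy chains in the day 2 control libraries and at 1.18 and 1.16 times with IFNγ. At day 5 it was 2.45 and 2.45 without and 1.47 and 1.52 with IFNγ. In the day 7 control cells it was 2.72 and 2.53 (X-GFP–negative), 3.25 and 3.24 (medium) and 2.3 and 1.88 (high). At every stage both control libraries had the higher ratio, and the IFNγ-treated day 7 cells were at 1.19 and 1.24, 1.2 and 1.4 and 0.635 and 0.906. ESCs, at 0.39 and 0.398, had the lowest ratio, and NPCs, at 1.06 and 2.32, the widest spread. Heavy chains share 50-base words with other genes and B2m shares none, so uncertain read assignment bears on the heavy chain sum. Its part in these ratios was not tested. The ratios also depend on the length used. With the longest transcript, the means were 0.886 in day 2, 0.907 in X-GFP–negative and 0.951 in X-GFP–medium IFNγ-treated cells, against 1.17, 1.22 and 1.3 with the union of exons. Whether B2m lay above or below the summed heavy chains there is thus not settled. Control means stayed above IFNγ means at every stage with either length. With only 2 libraries per group, an exact permutation test of a single ratio cannot go below p = 0.33, so none was run.

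**Figure D4:**
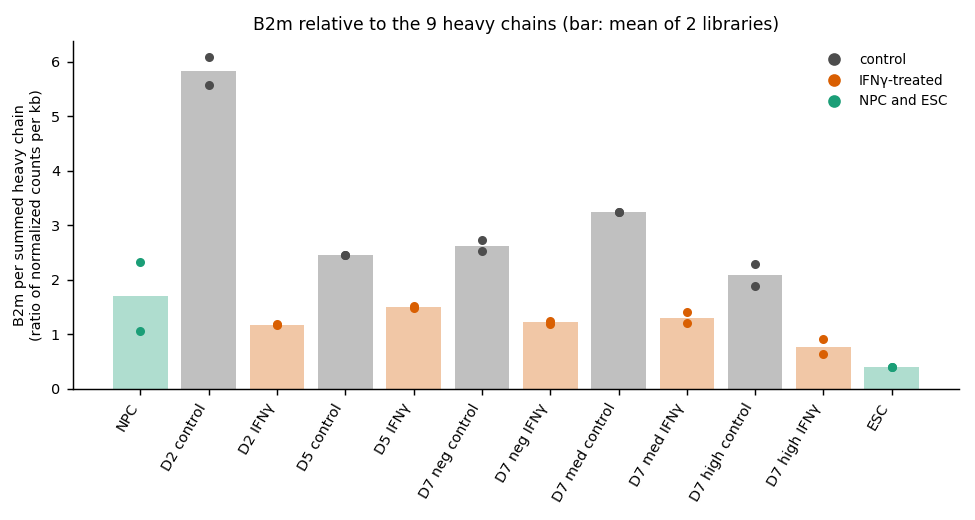
B2m divided by the sum of the 9 heavy chains, both as normalized counts per kilobase of exon, with a point per library and bars for the mean of 2 libraries per population. At each stage both control points lie above both IFNγ points, the furthest apart at day 2 (means 5.82 and 1.17), and ESCs are lowest (0.394). With the longest transcript as length the day 2 means were 4.58 and 0.886.

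The genes that make, carry and load peptides or drive class I transcription were followed as a list of 19. At day 2, 13 rose and 6 did not pass the threshold (median 2.16), and at day 5 11 rose and 8 did not pass it (1.11), where 5.03% and 1.65% of all genes tested rose. At day 7, 12 rose and 5 fell in X-GFP–negative (0.97), 8 and 6 in X-GFP–medium (0.15) and 5 and 4 in X-GFP–high cells (0.057). Of all genes tested, 31.1% rose and 30.8% fell in the first, 33.3% and 29.6% in the second and 18.1% and 20.4% in the last, so the counts in X-GFP–medium and –high cells are near that background. The largest difference at day 2 was that of Psmb9, an immunoproteasome subunit, at 40.7 and 42.7 without and 3409 and 3655 with IFNγ (6.37 ± 0.10, adjusted p = 3.81e-07). Nlrc5, the class I transactivator, was at 162 and 143 without and 9886 and 10792 with IFNγ (6.08 ± 0.087, adjusted p = 2.27e-07), and Psmb8, another immunoproteasome subunit, rose by 5.45 ± 0.068. The chaperone Canx (-0.052 ± 0.063) and Rfxap, a subunit of the RFX complex that binds class I promoters (-0.087 ± 0.11), had the smallest differences and did not pass the threshold.

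These 5 genes separated at day 7. In X-GFP–medium cells Psmb9 was still at 137 and 165 with IFNγ against 17.8 and 19.6 in control cells (adjusted p = 4.64e-06). Nlrc5 was at 186 and 214 against 164 and 165 and did not pass the threshold (0.28 ± 0.14, adjusted p = 0.123). Rfxap was lower with IFNγ in all 3 day 7 populations, by 0.50, 0.78 and 0.62 log2 units. In X-GFP–high cells Psmb9 (adjusted p = 0.00108) and Psmb8 (adjusted p = 0.00346) remained higher, while Nlrc5 differed by -0.018 ± 0.20.

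**Figure D5:**
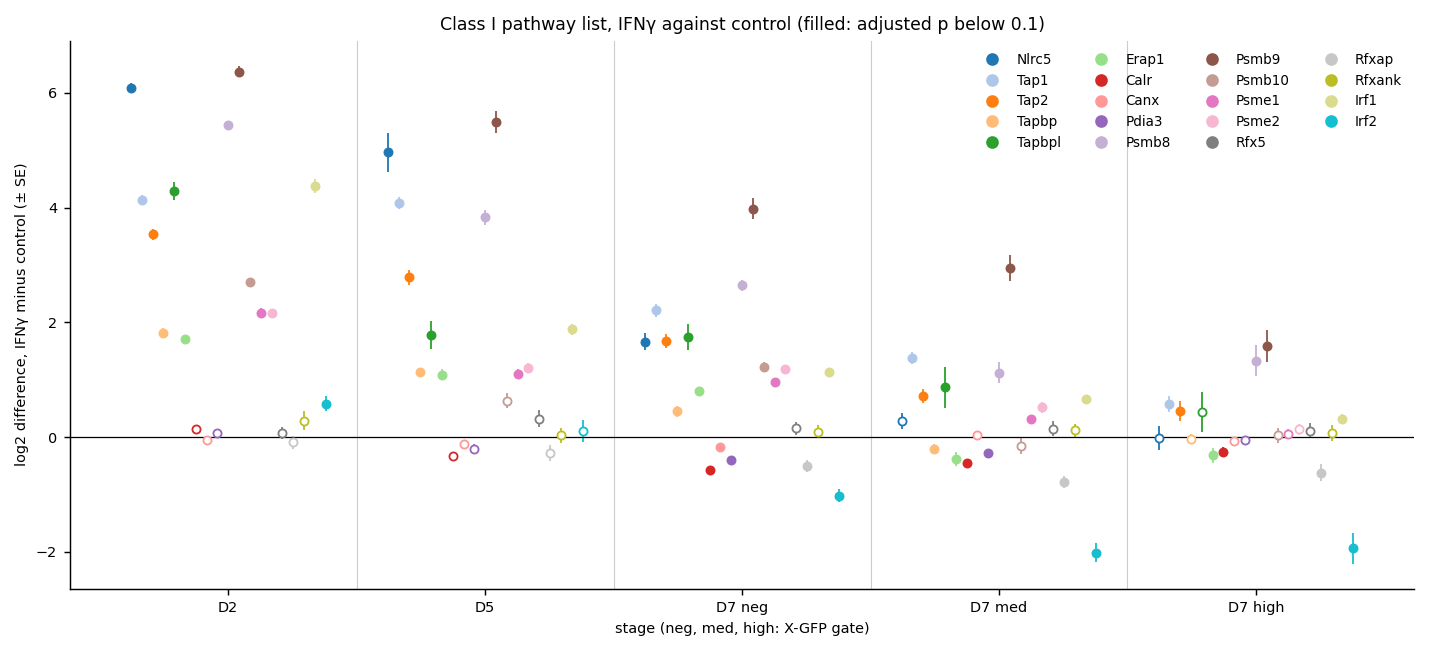
Log2 difference of IFNγ-treated against control cells for the 19 class I pathway genes at day 2, day 5 and in the 3 day 7 populations, from limma. Psmb9 and Nlrc5 are at 6.37 and 6.08 at day 2 and at 1.59 and -0.018 in X-GFP–high cells.

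Of 25 further class I and class I-like genes, 11 had at most 3 reads in every library and 6 reached a mean of 100 in any population. H2-Q5 was at 2.04 and 0 at day 2 without and 128 and 169 with IFNγ (adjusted p = 0.00171), and H2-T10, the near copy of H2-T22, at 14.3 and 13.9 without and 109 and 119 with it (adjusted p = 0.00117). H2-M5 followed another course, with 21.4 and 26.8 without and 25.2 and 33.6 with IFNγ at day 2 (adjusted p = 0.676), 315 and 350.1 in X-GFP–high control cells, 603 and 624 in X-GFP–high IFNγ-treated cells (0.88 ± 0.11, adjusted p = 0.000113) and 411 and 399.7 in ESCs. H2-M6-ps, a pseudogene, was also highest in X-GFP–high IFNγ-treated cells, at 185 and 175 against 108 and 139.8 in control cells (adjusted p = 0.0359). Both were higher in ESCs than in NPCs (3.71 ± 0.40 and 5.58 ± 0.41), unlike B2m. Cd1d1, which presents lipids to NKT cells, was at 181 and 189 without and 248 and 212 with IFNγ at day 2 (adjusted p = 0.287), and Fcgrt, the neonatal Fc receptor, at 184 and 106 without and 135 and 139 with it (adjusted p = 0.961). Neither passed the threshold there.

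Across the 12 population means of log2(normalized count + 1), the 36 pairs of heavy chains had Pearson correlations from 0.517 to 0.976 (median 0.835), and B2m correlated with the 9 heavy chains at 0.567 to 0.94 (median 0.765). Among 16035 other genes, the 5 most like the summed heavy chains were Gm8995 (r = 0.977), Gm12216 (0.969), Nlrc5 (0.954), and the proteasome activator subunits Psme1 (0.954) and Psme2 (0.948). Gm8995 and Gm12216 passed the filter of a mean above 10 only through day 2 IFNγ cells, where the heavy chains are also highest. Their means were 80.7 and 75.9 there and at most 15.8 and 14.6 in any other population, so their places in this order rest largely on that population. Of these 5, 1 was also among the 5 highest by Spearman correlation. The populations share one cell line and, in part, their treatment, so these correlations describe the 12 means.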

How the data were processed

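The signal values deposited by the authors were normalized counts of 37315 genes in 24 RNA-seq libraries. Per the paper's methods and the submitters' processing notes, stranded libraries were made after ribosomal RNA depletion, read pairs of 50 bases were aligned with STAR and WASP to mm10 with CAST/EiJ and 129S1/SvImJ positions masked, counted with HTSeq 0.6.1 and divided by DESeq2 size factors. How reads that match several class I genes, and strand, were treated in counting is not given in the sources used here. Antisense genes overlap B2m (Patl2), H2-Q4 (Gm11131), and H2-T22, H2-T23 and H2-T24 (A930015D03Rik). In every library 100% of values were whole multiples of 1 step, the value of 1 read, so whole reads were recovered. Depth was 24746109 to 37056508 reads on genes, and a gene was called at the floor in a group whose libraries held 3 reads or fewer. Floors cover counting error only. The allelic fractions that the authors deposited hold no counts and were not used here.

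Groups came from the labels. Populations were compared with limma 3.58.1 (R 4.3.3, lmFit, eBayes with trend), two-sided, on log2(normalized count + 1), for genes with a mean above 10 in the fit, Benjamini-Hochberg adjusted over all of them, at the threshold of 0.1 used by the study. The study used DESeq2, which needs counts. Alternatives were DESeq2 1.42.0 and edgeR 4.0.16 (quasi-likelihood) on whole reads, a pseudocount of 0.1, no filter, rescaled totals, 1 fit of 24 libraries, the replicate number as a block, leaving out each library, and the longest transcript as length. The procedure was tested on simulated data. The members, the pathway list and the motifs were chosen with earlier results of these data known, and the ISRE after the windows were read. Of the pathway list, 1 gene is not reported here. All members were named, with the 3 largest and 2 smallest differences of the pathway list at day 2, other class I genes with a mean of 100 or more in any population, and the 5 genes most correlated with the summed heavy chains. Values per kilobase used the union of exons in GENCODE vM21. Python 3.11.15, numpy 2.4.6, pandas 2.3.3 and matplotlib 3.10.9 were used.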

Additional observations from a re-analysis of the deposited data

Results flagged for a closer look

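The IFNγ effect differed between stages by a test of the difference itself, the limma interaction at an adjusted p below 0.1, for 21 pairs of member and stage. Each value is the log2 effect at the stage named first minus that at the stage named second. Between day 5 and day 2 it was B2m -0.91, H2-K1 -3.16, H2-D1 -2.43, H2-Q4 -1.85, H2-Q6 -2.63, H2-T22 -1.43 and H2-T24 1.84. Between day 7 X-GFP–negative cells and day 5 it was B2m -0.63, H2-K1 -0.36, H2-Q4 -0.65, H2-T23 -2.09 and H2-T24 -1.41. Between day 7 X-GFP–high and X-GFP–negative cells it was B2m -1.63, H2-K1 -1.03, H2-D1 -1.39, H2-Q4 -1.88, H2-Q6 -3.38, H2-Q7 -3.50, H2-T22 -1.49, H2-T23 -1.16 and H2-M3 -1.36. The comparisons of neighboring stages share the control and IFNγ libraries of the stage between them. Cells were sorted for SSEA1 at days 5 and 7 but not at day 2, and the part of this in the differences was not tested.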

How the results depend on the processing

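Of 1672 log2 differences of single members under an alternative, 1525 kept their direction and side of the threshold, 121 lost their call, 25 gained one and 1 turned, H2-K1 in day 2 control cells against NPCs, which went from 0.31 to -0.21 without NPC replicate 2 and to 0.84 without NPC replicate 1. Of the IFNγ results, 9 members at day 2 were called under every alternative, and the number called with IFNγ stayed at 8 to 10 at day 5 and 9 to 10 in X-GFP–negative cells. In X-GFP–high cells the number of members that rose was 3 with no filter, 3 in DESeq2, 3 in the fit of 24 libraries, and 3 to 5 with a library left out. In the other comparisons, the members higher in ESCs than in NPCs numbered 4 in the fit of 24 libraries and 0 to 3 with a library left out, those lower at day 2 than in NPCs 1 to 2 with a library left out, and those higher in control cells at day 5 than at day 2 numbered 1 in DESeq2 and 1 to 2 with a library left out. For IFNγ-treated X-GFP–negative against day 5 cells, leaving out a library gave 1 to 4 higher and 0 to 4 lower. Larger effects at day 5 than at day 2 numbered 0 with no filter, 0 in the fit of 24 libraries and 0 to 1 with a library left out. Smaller effects in X-GFP–negative cells than at day 5 numbered 3 with no filter, 3 after rescaling and 2 to 4 with a library left out. The cause of these changes was not tested. With 1 library left out of a group, the remaining one is assumed to vary like the other group.

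The labels do not say what a shared replicate number means. Deviations of same-numbered libraries correlated at −0.16 to 0.31 in the 12 comparisons. With the replicate block, 10 of the members rose at day 2, H2-T24 included (adjusted p = 0.0115), and 4995 genes changed against 1332 without it. At day 5 with the block, 10 members rose and 3379 genes changed, against 330 genes without it. The block also gained H2-K1 in ESCs against NPCs (0.0635), H2-T22 in IFNγ-treated X-GFP–negative against day 5 cells (0.0821), where it lost H2-T24 (0.103), and H2-Q7 in the day 5 against day 2 effect (0.0502). The crossed pairing, chosen after seeing the data, gave 6 members higher and 1 lower for day 2 control cells against NPCs and 3 and 3 for IFNγ-treated X-GFP–negative against day 5 cells. Of 120 levels per population, 24 moved by more than 1 SD after rescaling and 36 levels per kilobase with the longest transcript. Depth limits H2-T24 and H2-Q6, which had at most 5 reads in several libraries.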
